A study of Mus musculus and Homo sapiens with 10 samples.

Results

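The Gm6871-HA binding landscape is the set of 1277 genomic regions that were called as peaks in a chromatin immunoprecipitation (ChIP-seq) of HA-tagged Gm6871 from mouse embryonic stem cells. All 1277 regions of the deposited peak list were taken, out of 46326 peaks in the whole series, the other 45049 being peaks of the corepressor KAP1. The ChIP was made in the C57BL/6 line ES3, which overexpressed HA-tagged Gm6871 from a doxycycline-induced vector, 2 days after induction, with a mouse antibody against HA. Its total input came from the same line under the same induction and was not analysed here, and the labels give the 2 samples different sonication settings. KAP1 was profiled in wild-type cells of the line J1, of strain 129S4/SvJae, with a custom rabbit antibody. RNA came from ES3 cells 4 days after lentiviral transduction, either with the empty vector sh-empty or with sh-Gm6871, and each of these groups has 2 libraries. Gm6871 is thus seen at a level set by a vector, with 1 library and no replicate, so the peak counts below carry no replicate error and were not tested.

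Gm6871 belongs to the KRAB zinc finger proteins, which read DNA through tandem zinc fingers and recruit KAP1 (encoded by Trim28) through the KRAB domain. KAP1 in turn brings in the histone methyltransferase SETDB1, HP1 proteins and histone deacetylases, and in ES cells this machinery is known for holding down endogenous retroviruses and L1 elements. L1 elements are autonomous retrotransposons that copy themselves through RNA. Their 5′ end holds the promoter, and mouse lineages are told apart in part by the repeated units found there. L1Md_A, L1Md_T and L1Md_Gf hold the young copies that can still move. L1Md_F, L1Md_F2, L1Md_F3 and the L1_Mus groups are older, and Lx elements are older still and shared among rodents.

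The peaks were narrow and mostly of low score. The width ran from 160 bp to 5121 bp, with a median of 409 bp and an interquartile range of 338 to 497 bp. Of the 1277 peaks, 1022 (80.0%) measured 300 to 600 bp and 15 (1.17%) exceeded 1000 bp, whereas 35.1% of KAP1 peaks were wider than 1000 bp and the KAP1 median was 906 bp. The score is the authors' own value for each peak and serves here only to order peaks within a list. It had a minimum of 50.01 and a median of 68.1, with 435 peaks (34.1%) under 60, 328 (25.7%) at 100 or more and 21 above 300. Wider peaks had higher scores (Spearman's rho 0.512 across the 1277 peaks, given as a description, since both values come from the same reads). Median width rose from 348 bp in the lowest quartile of the score to 522 bp in the highest.

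The 10 peaks of highest score were all off the L1 copies, and 8 of these were over KAP1. The first, at chromosome 4, 43553666 to 43554551 in mm9, had a score of 3100, a value that 33 peaks in the KAP1 list also carried. It was 886 bp wide and lay wholly within a KAP1 peak of 3132 bp. The next, at chromosome 18, 67979662 to 67980365, scored 1129.28 and lay within a KAP1 peak of 1077 bp. A pair on chromosome 7, at 29468476 to 29469102 and 29509523 to 29510178, scored 533.76 and 518.26, and both lay within KAP1 peaks. Of the 10, those without KAP1 were at chromosome 16, 4608495 to 4609307 (score 471.84), and chromosome 17, 84340528 to 84341187 (score 462.52), at 5.81 kb and 12.4 kb from the nearest KAP1 peak. The other 4 lay on chromosomes 10, 9, 14 and 15 with scores of 556.56, 470.35, 459.47 and 431.77. Neighbouring genes are not given, since no annotation of this build was used.

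Peaks were found on all 21 chromosomes, and the X chromosome stood apart from the autosomes. The 19 autosomes held 1243 peaks, from 26 on chromosome 19 to 108 on chromosome 2. Per megabase (Mb) of the span from the first to the last feature of the mouse files, autosomal density ran from 0.341 on chromosome 6 to 0.709 on chromosome 7, with a median of 0.524. The X chromosome had 31 peaks in 164 Mb, or 0.190 per Mb, below every autosome. It was also the chromosome richest in L1, with 10.5 copies per Mb against 3.23 to 7.48 on autosomes. Chromosome Y, of which the files cover 2.63 Mb, had 3 peaks, all 305 bp wide with a score of 57.74.

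The low density on X was seen both on and off L1. Off the L1 copies, X had 0.165 peaks per Mb against 0.266 to 0.535 on autosomes. Of the 1720 L1 copies on X, 4 had a Gm6871 peak (0.233%, 95% exact binomial interval 0.0634 to 0.594%), against 284 of 13204 autosomal copies (2.15%, 1.91 to 2.41%). Taking L1Md_F2, L1Md_F3 and L1_Mus1 alone, 3 of 665 copies on X were bound (0.451%, 0.0931 to 1.31%) and 238 of 4431 on autosomes (5.37%, 4.73 to 6.08%). Across autosomes this share ran from 2.64% on chromosome 4 to 8.33% on chromosome 10. All such intervals cover counting error only. The KAP1 list, from the other line, was also sparse on X, at 5.64 peaks per Mb against 14.3 to 25.4 on autosomes, and 1 of the 31 Gm6871 peaks on X overlapped a KAP1 peak. The number of X chromosomes per cell was not taken into account, and its part in these low values was not tested.

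Among the autosomes, the order of Gm6871 density was close to neither that of KAP1 nor that of L1. Spearman's rho across the 19 autosomes was -0.140 between Gm6871 and KAP1 peaks per Mb and -0.0246 between Gm6871 peaks and L1 copies per Mb. Chromosome 7 had the most Gm6871 peaks per Mb but the lowest share overlapping KAP1 (17 of 106, 16.0%). Of these 106 peaks, 16 lay in a single stretch of 0.988 Mb described below, and 0 of the 16 overlapped KAP1. On chromosome 9 the share was highest, at 32 of 76 (42.1%), of which 12 lay in a single cluster described below. The share of peaks on L1 was lowest on chromosome 12 (6 of 53, 11.3%) and highest on chromosome 10 (22 of 70, 31.4%).

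**Figure D1:**
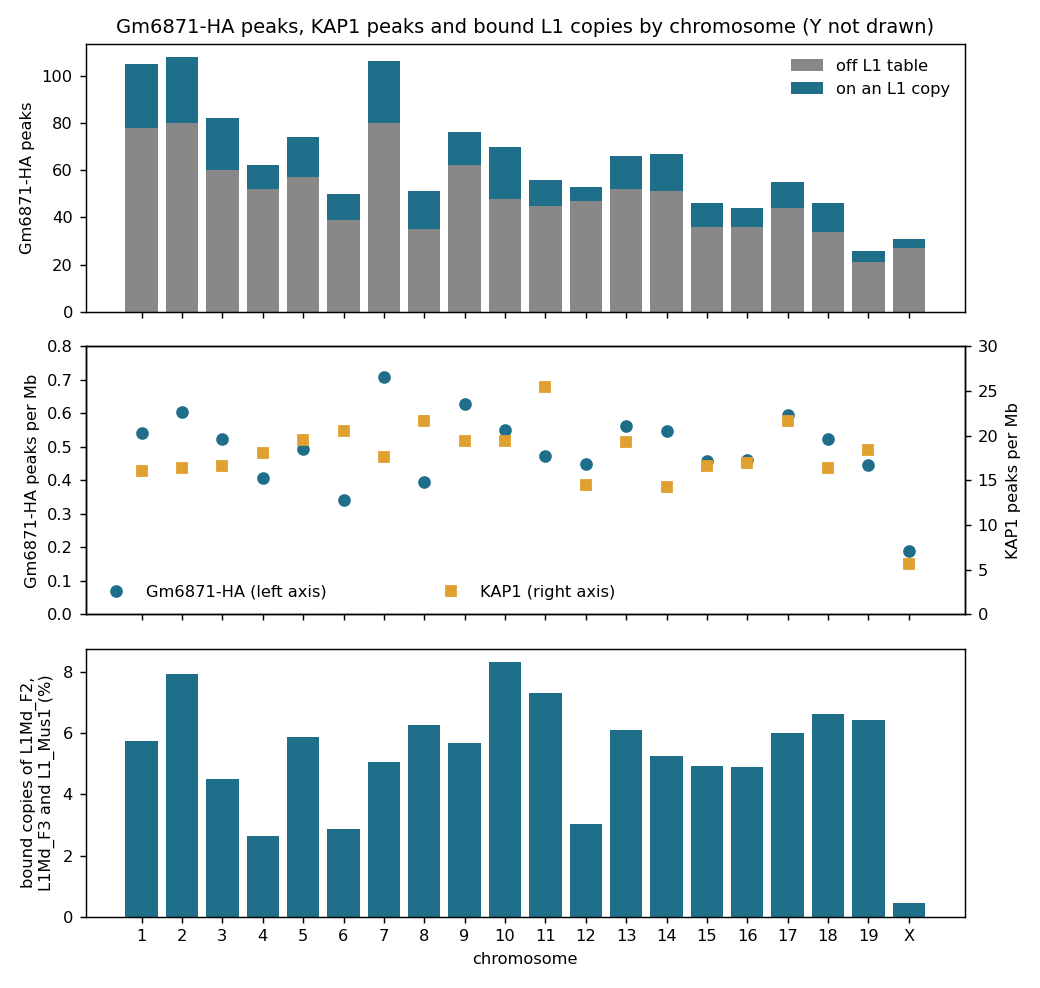
Gm6871-HA peaks by chromosome as counts on and off L1 copies (top), peaks per Mb for Gm6871-HA (left axis) and KAP1 (right axis; middle), and the percentage of L1Md_F2, L1Md_F3 and L1_Mus1 copies with a Gm6871-HA peak (bottom). X has 0.190 Gm6871-HA peaks per Mb and 0.451% bound copies, both below every autosome.

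Along the chromosomes, peaks were gathered toward the low-coordinate end. Each span was divided into 10 equal segments, a division chosen after values were seen. The first segments held 251 peaks (19.7%, 17.5 to 21.9%) and the next 173 (13.5%), while each of the other 8 held 7.44 to 9.01%. The first segments held 12.0% of KAP1 peaks and 14.7% of L1 copies. Peaks on L1 (56 of 290, 19.3%, 14.9 to 24.3%) and off L1 (195 of 987, 19.8%) had like shares there. The interval of the peaks on L1 takes in the 16.6% of L1Md_F2 copies that lay there. Among the 1163 peaks outside local clusters the share was 18.0%. KAP1 peaks were again at 12.1% in the last segments, where Gm6871 had 8.93%. On 18 of the 19 autosomes the first segment held more than 10% of that chromosome's peaks, and the share ran from 9.09% on chromosome 17 to 36.8% on chromosome 9. In the mouse assembly, coordinates begin at the centromeric end.

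Spacing was wide, with a minority of tight groups. Over the 1256 gaps between neighbouring peaks the median was 0.981 Mb, the upper quartile 2.80 Mb and the longest 22.7 Mb, against a median of 18.9 kb for the denser KAP1 list. The longest gap lay on X, from 133851077 to 156593491, a stretch with 197 L1 copies, 67 of them L1Md_F2, and 98 KAP1 peaks. At the other extreme, 179 gaps (14.3%) were of 100 kb or less, 35 (2.79%) of 10 kb or less and 13 of 1 kb or less. The closest pair, 22 bp apart, were peaks of 1396 and 900 bp at the start of chromosome 9.

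**Figure D2:**
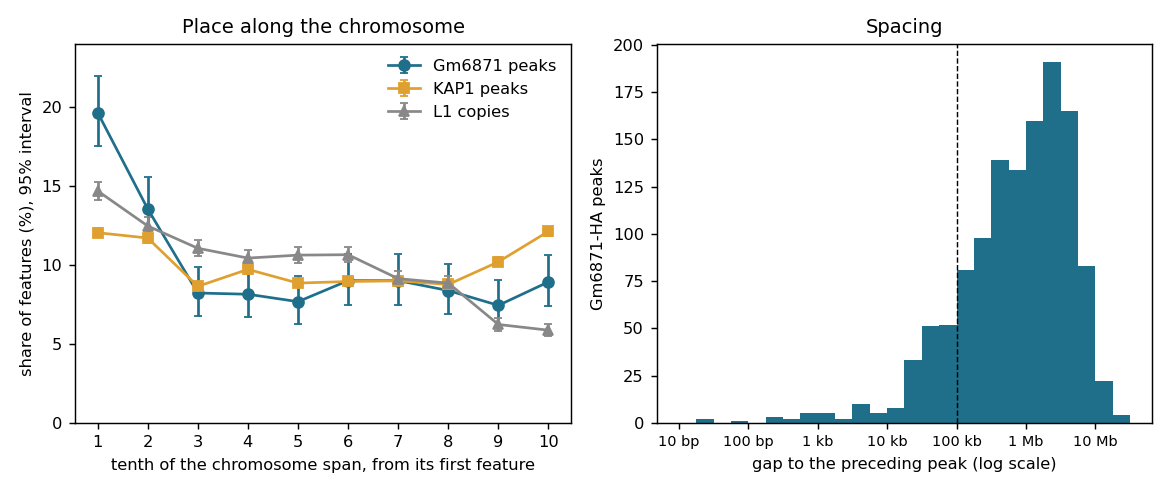
Left: percentage of Gm6871-HA peaks, KAP1 peaks and L1 copies in each of 10 equal segments of the chromosome span, with 95% exact binomial intervals. Right: number of Gm6871-HA peaks by the gap to the preceding peak on a log scale, with a dashed line at 100 kb. The first segment holds 19.7% of Gm6871-HA peaks, and 179 gaps lie at or below the line.

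Local clusters, defined as runs of at least 3 peaks with gaps of at most 100 kb, took in 114 peaks (8.93%) in 30 clusters on 14 chromosomes. Of these clusters, 22 held 3 peaks, 4 held 4 and 4 held 5 or more. Clustered peaks were wider than the list as a whole, with a median of 502 bp, and 9 of the 15 peaks over 1000 bp were among them. Of the clustered peaks, 29 (25.4%, 17.7 to 34.4%) were on L1 and 31 (27.2%, 19.3 to 36.3%) on KAP1, beside 22.4% and 22.9% of the 1163 others. The clusters were uneven in this respect, since 12 had no peak on L1 and 15 had none on KAP1. The clustered share depended on the definition, at 4.23% with gaps of at most 50 kb, 32.7% with 500 kb and 3.35% among peaks of score 100 or more.

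The largest cluster lay at the very start of chromosome 9. It held 13 peaks within 38.4 kb, from 2999996 to 3038444, and 12 of them overlapped KAP1, which had 18 peaks of its own there, up to 6044 bp wide. None was on an L1 copy, and the cluster included the widest peak of the list, 5121 bp at 3017659 to 3022779, and another of 3014 bp. A smaller cluster of like shape was at chromosome 2, 98502205 to 98507556, with 3 peaks in 5.35 kb, all on KAP1 and with a median width of 949 bp. At chromosome 10, 7231167 to 7237197, 3 peaks with a median width of 1106 bp had no KAP1 peak. The remaining peaks among the 5 widest were 4294 bp at chromosome 4, 146133430 to 146137723, 3827 bp at chromosome 17, 39981965 to 39985791, and 2825 bp within the chromosome 10 cluster. The chromosome 17 peak lay wholly within a KAP1 peak of 6411 bp that carried a score of 3100. Whether the inputs were also high at these clusters and wide peaks was not looked at, so shared signal here need not be binding of both proteins.

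The other large clusters were made of narrower peaks, none of them over 733 bp. Chromosome 7 between 33015155 and 34002788 held 16 peaks in 4 clusters within 0.988 Mb, 10 of them on L1 and none on KAP1, which had no peak inside the 4 clusters. Their median width was 517 bp and their scores ran from 53.01 to 124.04. The 10 included peaks on L1Md_F2, L1_Mus1 and L1_Mus3. The name of the KAP1 list points to uniquely placed reads, and the part of this in the lack of KAP1 peaks here was not tested. Near the end of chromosome 2, from 176831060 to 177779087, 13 peaks lay within 0.948 Mb, 11 of them in clusters of 7 and 4, with 1 on L1 and 3 on KAP1. On chromosome 3, from 98265303 to 98372919, 5 peaks of 94.21 to 268.37 in score had no KAP1 peak, and 2 were on L1Md_T copies. On chromosome 13, from 22988118 to 23057630, 4 peaks with scores of 77.11 to 174.73 were neither on L1 nor on KAP1.

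Some neighbouring peaks had exactly the same width and score. On chromosome 7, the 3 peaks of the cluster at 33470971 to 33587190, 513, 652 and 614 bp wide with scores of 55.12, 63.62 and 114.18, recurred with the same widths, scores and order at 33697867 to 33814093. The same stretch holds a pair of L1_Mus3 copies, 6471 and 6468 bp long at 33015309 and 33978152, each with a peak of 437 bp at its end and a second one inside. These were the 2 copies in the list with 2 peaks. On chromosome 3, the L1Md_T copies at 98280564 to 98285792 and 98334037 to 98339265, both 5229 bp long, each had a peak of 678 bp with a score of 94.21. The 4 peaks of the chromosome 13 cluster were 2 such pairs, of 642 and 550 bp. In all, 37 peaks had an equal in width and score within 1 Mb, 15 of them in clusters, and 1 of the 37 overlapped KAP1. Across the whole list 271 peaks (21.2%) shared both values with another, 173 of them with scores under 60. The placement of reads with several positions was not given in the sources used here, so equal peaks on near-identical sequence cannot be told apart from separately bound sites.

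Gm6871 peaks on L1 fell mainly on 3 older subfamilies. In all 290 peaks (22.7%, 20.4 to 25.1%) overlapped a copy of the authors' table of 14949 L1 copies of 5000 bp or longer, which covered 3.39% of the spans. They marked 288 copies, 1.93% of the table, and each peak touched a single copy. Among peaks of score 100 or more, 14.0% were on L1. L1Md_F2 took 161 peaks, L1_Mus1 41 and L1Md_F3 39. These 241 peaks made up 83.1% of the peaks on L1, while the same subfamilies made up 34.1% of the copies. The young lineages L1Md_T, L1Md_A and L1Md_Gf together made up 55.1% of the copies and took 31 peaks (10.7%). Since the placement of reads with several positions is not known, copies of different subfamilies may not be equally open to peak calling. The part of this in the shares by subfamily was not tested.

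Per length of sequence, L1_Mus1 had 9.88 peaks per Mb of its copies, L1Md_F3 9.44 and L1Md_F2 7.65. L1Md_T had 0.740 and L1Md_A 0.429 peaks per Mb, and the density of all peaks over the spans was 0.495 per Mb. The bound share was 5.82% of 704 copies for L1_Mus1 (4.21 to 7.82%), 5.41% of 721 for L1Md_F3 (3.87 to 7.32%) and 4.38% of 3677 for L1Md_F2 (3.74 to 5.09%). These 3 intervals overlap one another, so no order among them is resolved. Of the remaining subfamilies with more than 1 bound copy, L1Md_F had 6 of 268 copies (2.24%, 0.826 to 4.81%), L1_Mus2 4 of 325 (1.23%), L1_Mus3 3 of 362 (0.829%), L1Md_T 22 of 4981 (0.442%, 0.277 to 0.668%) and L1Md_A 8 of 3133 (0.255%, 0.110 to 0.503%). L1Md_Gf (of 124 copies), L1_Mus4 (of 118), Lx5 (of 34, 2.94%) and L1VL1 (of 17, 5.88%, 0.149 to 28.7%) had 1 bound copy each, too few to place them. The other 24 of the 36 subfamilies had none, and the largest of them, Lx, had 0 of 170 copies, with an exact interval that reaches 2.15%.

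**Figure D3:**
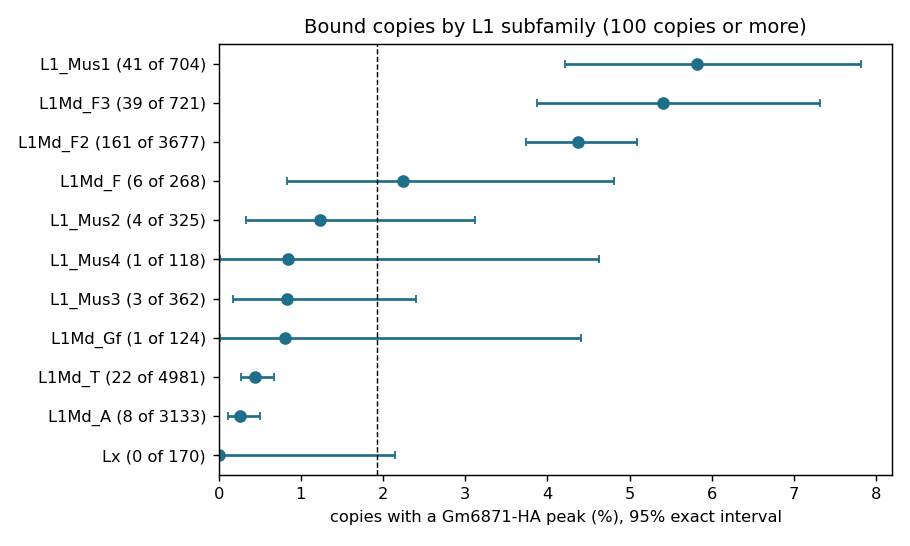
Percentage of copies with a Gm6871-HA peak in each L1 subfamily of at least 100 copies, with 95% exact binomial intervals and the bound and total copies in brackets. The dashed line is the 1.93% over all copies; L1_Mus1, L1Md_F3 and L1Md_F2 lie to its right with intervals that do not reach it, and L1Md_T and L1Md_A lie to its left.

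Peaks on L1 had like scores across the main subfamilies and were narrower on the young ones. The median score was 65.54 on L1Md_F2, 68.44 on L1_Mus1, 63.53 on L1Md_F3 and 60.27 on L1Md_T, and the median width 402, 416, 417 and 314 bp, with 318 bp on L1Md_A. No peak on L1 exceeded 740 bp in width or 212.04 in score, and 5 of the 100 highest-scoring peaks of the whole list were on L1. The highest on any L1 copy, with a score of 212.04, was on an L1Md_F3 copy at chromosome 14, 73010614 to 73015839, and did not overlap KAP1. The next on L1Md_F3 scored 185.98, with KAP1, and 158.26, without. On L1_Mus1 the highest scored 178.85, on the copy at chromosome 17, 79526391 to 79532351, also without KAP1, and the next, at 152.23 and 142.16, were over KAP1. The highest of L1Md_F2 scored 178.12, on the copy at chromosome 9, 100710930 to 100716627, and overlapped a KAP1 peak. The next on L1Md_F2, at 168.94 and 166.23, overlapped KAP1 as well. The top 3 peaks of L1Md_F (122.97, 108.68 and 87.94) and of L1Md_T (140.17, then 94.21 on both chromosome 3 copies) were without KAP1. On L1Md_A the highest, at 142.14, overlapped KAP1 and had its midpoint outside the copy, and the next scored 139.72 and 65.62.

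Within the copies, most peaks sat at a like distance from an end. The distance from the peak midpoint to the nearer end had a median of 1136 bp, with an interquartile range of 972 to 1253 bp. Of the 290 peaks, 235 (81.0%, 76.0 to 85.4%) lay 750 to 1500 bp from an end, a pair of windows, set after values were seen, that make up 26.1% of the length of these copies. The share was 138 of 161 on L1Md_F2 (85.7%), 37 of 41 on L1_Mus1 (90.2%), 32 of 39 on L1Md_F3 (82.1%) and 13 of 22 on L1Md_T (59.1%), with 4 of 8 on L1Md_A, 2 of 4 on L1_Mus2 and 1 of 5 on L1_Mus3. The median distance was 1142 bp on L1Md_F2, 1117 bp on L1_Mus1, 1138 bp on L1Md_F3, 1171 bp on L1Md_T and 1097 bp on L1Md_A. The few peaks on the young subfamilies were more spread, with a width of the interquartile range of 664 bp on L1Md_T and 780 bp on L1Md_A against 213 bp on L1Md_F2. Only 3 of 290 peaks were more than 2000 bp from both ends. They were on an L1Md_T, an L1Md_A and an L1_Mus2 copy.

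The distance to the farther end fell into separate groups that went with the side of the copy. On L1Md_F2, 102 peaks were nearer the end of higher coordinate, and 91 of them lay 4800 to 5200 bp from the other end, with a median of 5011 bp. The other 59 were nearer the end of lower coordinate, and 51 of these lay 3900 to 4200 bp from the other end, with a median of 4058 bp. The copies differed in length to match, with medians of 6127 and 5237 bp, while the distance to the nearer end was 1121 and 1173 bp. L1Md_F3 showed the same split, at 5022 bp (22 peaks) and 4086 bp (17 peaks). L1_Mus1 did not, with 5018 bp for 20 peaks and 5009 bp for 21. The table gives no strand, so lower and higher ends could not be matched to the 5′ and 3′ ends of the element, and the way copy ends were set was not given in the sources used here.

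**Figure D4:**
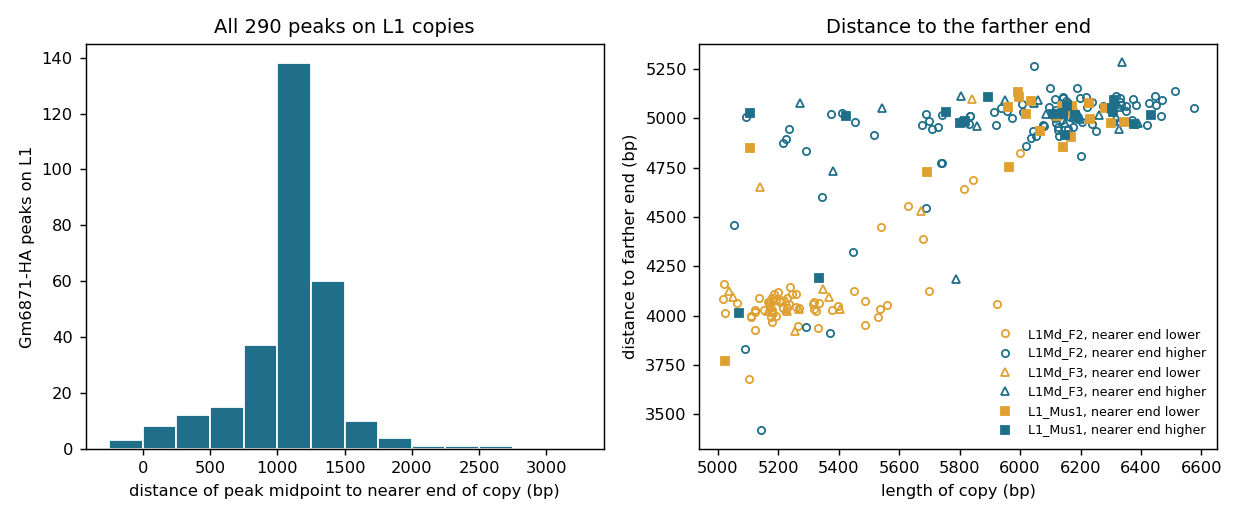
Left: number of Gm6871-HA peaks on L1 by distance of the peak midpoint to the nearer end of the copy, in bins of 250 bp. Right: distance to the farther end against copy length for L1Md_F2, L1Md_F3 and L1_Mus1, coloured by whether the nearer end has the lower or the higher coordinate. Points gather near 5011 bp for L1Md_F2 peaks nearer the higher end and near 4058 bp for those nearer the lower end, while L1_Mus1 squares of both colours gather near 5018 bp.

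Across the length classes of L1Md_F2 the intervals of the bound share overlapped. Copies from 5100 to under 5300 bp and from 6100 to under 6300 bp, 927 of each, were bound in 38 (4.10%) and 39 cases (4.21%). The highest share, 6.54% (3.85 to 10.3%), was in the 260 copies from 5600 to under 5900 bp, and the lowest of a class with a bound copy, 2.64% (1.07 to 5.37%), in the 265 copies under 5100 bp. Of 40 copies of 6600 bp or more 0 were bound, with an exact interval that reaches 8.81%. L1_Mus1 ran from 2.13% (0.259 to 7.48%) at 5300 to under 5600 bp to 9.62% (5.48 to 15.4%) at 6100 to under 6300 bp, with overlapping intervals. L1Md_T had 0 bound of 920 copies from 5300 to under 5600 bp (exact interval up to 0.400%), beside 6 of 786 in the class just below. Of the 290 peaks on L1, 280 (96.6%) lay wholly inside their copy.

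The remaining 987 peaks overlapped no copy of the table. The table holds only copies of 5000 bp or longer, so shorter L1 fragments and other repeats were not looked at. The peaks were not close neighbours of the listed copies either, at a median of 56.1 kb, with 15 peaks (1.52%) within 1 kb and 147 (14.9%) within 10 kb. Their median width of 411 bp was close to the 406 bp of peaks on L1, but their scores reached higher, with an upper quartile of 108.62 against 83.71. Of all 1277 peaks, 246 were on L1 without KAP1, 44 on both, 253 on KAP1 off L1, and 734 (57.5%, 54.7 to 60.2%) on neither.

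Overlap with KAP1 rose with the score of the Gm6871 peak. KAP1 peaks covered 1.76% of the spans, and 297 Gm6871 peaks (23.3%) overlapped one. The share was 11.8% (8.51 to 15.9%) in the lowest quartile of the score, then 15.1% and 25.1%, and 41.1% (35.6 to 46.7%) in the highest. Off L1 the quartiles had 12.3%, 18.4%, 27.7% and 41.5%. On L1 they had 10.4%, 6.67%, 17.3% and 38.1% (16 of 42, 23.6 to 54.4%). Over all scores the share was lower on L1, at 44 of 290 (15.2%, 11.2 to 19.8%) against 253 of 987 off L1 (25.6%, 22.9 to 28.5%). In the highest quartile, the intervals of peaks on and off L1 overlapped. Of its 319 peaks, 42 were on L1, against 77 to 90 in each lower quartile. Among the 100 peaks of highest score, 58 overlapped KAP1.

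**Figure D5:**
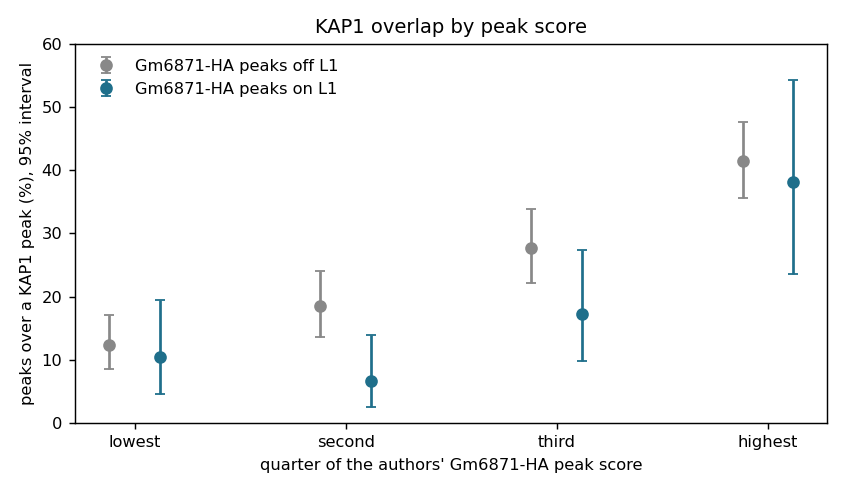
Percentage of Gm6871-HA peaks that overlap a KAP1 peak by at least 1 bp, by quartile of the authors' Gm6871-HA score, for peaks on and off L1, with 95% exact binomial intervals. The highest quartile reaches 41.5% off L1 and 38.1% on L1.

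Where peaks of both proteins overlapped, the midpoints lay a median of 148 bp apart (interquartile range 54.5 to 346 bp), and 216 of the 297 Gm6871 peaks (72.7%) were wholly inside the KAP1 peak. The choice of overlapping pairs and the greater width of KAP1 peaks, at a median of 954 bp, bear on both values. The Gm6871 peaks that overlapped KAP1 were wider (median 465 bp) and of higher score (93.13) than the others (392 bp and 64.49). From the side of KAP1, 302 of 45049 peaks (0.670%) met a Gm6871 peak. That share was 0.364% (0.261 to 0.493%) in the lowest quartile of the KAP1 score and 1.08% (0.900 to 1.29%) in the highest. Gm6871 peaks without KAP1 lay a median of 18.6 kb from the nearest KAP1 peak, and 128 of these (13.1%) were within 1 kb of one.

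By subfamily, a KAP1 peak overlapped 27 of 161 peaks on L1Md_F2 (16.8%, 11.4 to 23.5%), 8 of 41 on L1_Mus1 (19.5%, 8.82 to 34.9%), 5 of 39 on L1Md_F3 (12.8%, 4.30 to 27.4%), 1 of 22 on L1Md_T and 0 of 6 on L1Md_F. On L1Md_F2, the 27 peaks with KAP1 had a median score of 80.36 and the 134 without had 64.64. They sat at a like place, with median distances of 1182 and 1134 bp to the nearer end. Counting KAP1 peaks anywhere in the copy, 104 of the 288 copies with a Gm6871 peak had one (36.1%, 30.6 to 42.0%), beside 12.7% of all L1 copies and 12.2% of those without a Gm6871 peak. These groups differ in their mix of subfamilies, since L1Md_F2, L1Md_F3 and L1_Mus1 took 83.1% of the peaks on L1 but make up 34.1% of the copies. The shares were not worked out within subfamilies, and the part of this mix was not tested. The name of the KAP1 list points to uniquely placed reads, while that of the Gm6871 list does not, and the 2 lists come from different lines. The part of either in these overlaps was not tested.

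RNA of ES3 cells served to ask whether bound copies respond when Gm6871 is knocked down. The ES cell markers Pou5f1 (946 and 1175 RPKM in the controls), Sox2 (265 and 257) and Nanog (175 and 179) were detected in every library, where RPKM is the read number scaled to the length of the feature and the size of the library. Esrrb, another ES cell marker, stood at 0.0499 and 0.0295. Of the ES cell and KAP1 pathway genes together, 5 of 14 with more than 1 RefSeq entry had a mean under 0.5 RPKM, against 0 of 18 with 1 entry, so a low value in this table is not read as absence. Feeder fibroblast markers summed to 17.1 and 2.37 RPKM in controls 1 and 2 and to 15.7 and 1.86 in knockdown libraries 1 and 2. Primitive endoderm markers, mainly Sparc, summed to 232 and 251 against 218 and 120, and trophoblast markers to 7.87 and 2.30 against 5.94 and 8.62. Gm6871 has 2 transcripts in the reference and 0 entries here matched them. Its own RNA was therefore not analysed here and the knockdown was not checked.

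Most of the KAP1 machinery had measurable RNA. Trim28 stood at 627 and 960 RPKM in control libraries and at 711 and 548 in knockdown libraries. Cbx1, an HP1 protein, stood at 209 and 194 against 200.4 and 164, and the deacetylase Hdac1 at 356 and 328 against 344 and 288. The zinc finger protein Zfp57, which guards imprinted loci, stood at 53.7 and 95.5 against 66.3 and 86.6. In each of these 4 genes the groups overlapped. Setdb1 stood at 0.214 and 0.256 against 0.176 and 0.179, and Uhrf1 was listed at 0 in all libraries, both among the genes with several entries. The DNA methyltransferase Dnmt3b had the largest difference of the list, at 2.12 and 2.87 against 1.47 and 0.765 RPKM (log2 difference -0.91, SE 0.33, limma adjusted p = 0.997). Both its knockdown values were below both controls, and the same order was seen in Atf7ip, Cbx5, Dnmt3a, Suv39h2 and the untested Setdb1. No gene of the list had both knockdown values above both controls. The share of all genes with either order was not counted. Dnmt3b is also among the genes with several entries, with 5. Of the 22 genes of this list 18 were tested and 0 passed in either direction, with a median log2 difference of -0.15 beside -0.0026 over all genes. Limma called 0 of 11658 genes (0%), while 223 had an unadjusted p under 0.05.

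Bound copies were little transcribed. The 288 copies had a median of 0.0219 and 0.0397 RPKM in control libraries against 0.0297 and 0.0406 in knockdown libraries, and the 14661 others 0.0250 and 0.0518 against 0.0357 and 0.0468. Within subfamilies, the bound L1_Mus1 copies were the higher group in each library, at 0.0368 and 0.0445 against 0.0220 and 0.0308 in the controls, while on L1Md_T bound copies were lower, at 0.0323 and 0.0722 against 0.0478 and 0.154. On L1Md_F2 the medians were near equal, at 0.0212 and 0.0336 for bound and 0.0201 and 0.0341 for other copies. Reads on all bound copies together numbered 3535 and 9627 in control libraries, and 6243 and 11428 after knockdown, of totals from 37198636 to 66050821.

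None of the bound copies passed the test in the knockdown. A mean of at least 0.1 RPKM was reached by 39 of the 288, of which 15 were L1Md_F2, 14 L1_Mus1, 6 L1Md_F3 and 3 L1Md_T. Limma called 0 of these 39 (lowest adjusted p = 1.00), where it called 3 of 3167 tested copies (0.0947%), all higher. Of the 39, 31 were above 0 on the log2 scale, beside 2184 of 3167 (69%), and their median was 0.09 beside 0.07 over all copies tested. At an unadjusted limma p under 0.05 there were 0 of the 39 and 5 of 3167. Where nothing differs, a share of about 0.05 would fall there, so this fit was strict on L1 copies. Its 0 of the 39 does not show that bound copies were unchanged. After median centring there were 2 of the 39 and 40 of 3167, and with the replicate number as a block 1 and 15. The calls moved with the library left out. Without control 2, 1567 of 3167 copies and 5 of the 39 were called, and the median over all copies was 0.55. Without control 1, 19 copies and 0 of the 39 were called, and the median was -0.41. Without knockdown library 2, 0 copies were called. Reads on L1 copies made up 1.20% and 1.67% of the totals in controls 1 and 2, and 1.43% and 1.56% in the knockdown libraries, and the part of this in the calls was not tested.

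The bound copy with the most RNA was an L1Md_F2 copy at chromosome 9, 124068274 to 124074399, at 1.30 and 1.70 RPKM in control libraries against 2.23 and 2.80 after knockdown (log2 difference 0.71, SE 0.36, limma adjusted p = 1.00). Both knockdown libraries were above both controls. It was followed by 3 L1_Mus1 copies, the first at chromosome 2, 177777623 to 177783790, at the edge of the chromosome 2 stretch of peaks, with 1.15 and 2.04 RPKM against 1.29 and 2.65. The second, at chromosome 3, 96665385 to 96671076, stood at 1.63 and 1.51 against 1.31 and 2.11, and the third, at chromosome 17, 22033364 to 22039595, at 0.380 and 0.782 against 0.440 and 0.984. In these 3 the groups overlapped. The fifth, an L1Md_F3 copy at chromosome 13, 65417986 to 65423126, had 0.523 and 0.488 against 0.567 and 0.907, with no overlap between the groups. With 2 libraries against 2, groups without overlap reach an exact two-sided permutation p of only 0.333. The share of all tested copies without overlap was not counted.

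The differences of the bound copies tested ran from -0.29 to 0.71. After the chromosome 9 copy, the largest were 0.64 on an L1Md_F2 copy at chromosome 9, 12437718 to 12444034 (0.302 and 0.339 RPKM against 0.474 and 0.650), 0.50 on an L1_Mus1 copy at chromosome 2, 20712303 to 20718321 (0.415 and 0.559 against 0.630 and 0.825), 0.48 on an L1Md_F3 copy on chromosome 6 and 0.47 on an L1_Mus3 copy on chromosome 9. In the first 2 and in the L1_Mus3 copy (0.124 and 0.115 against 0.176 and 0.233), both knockdown libraries were above both controls. The lowest was an L1Md_F2 copy at chromosome 2, 18189996 to 18196112, at 0.0967 and 0.254 against 0.0922 and 0.141 RPKM (-0.29), and the other 4 of the 5 lowest lay between -0.21 and -0.12 on L1_Mus1 and L1Md_F3 copies. Of these 5, the L1_Mus1 copy at chromosome 13, 15823548 to 15829722 (0.118 and 0.116 against 0.0787 and 0.0956), and the L1Md_F3 copy at chromosome 12, 78260300 to 78265970 (0.166 and 0.185 against 0.137 and 0.152), had both knockdown libraries below both controls. Each of these 10 had a limma adjusted p of 1.00. They were picked by the size of their difference, which favours groups that do not overlap, and the share of all tested copies without overlap was not counted.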

How the data were processed

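The members and gene lists were chosen with earlier results of these data known. Per antibody the authors deposited a single list of peaks with a score each, whose peak names point to MACS, and for RNA they deposited RPKM values per RefSeq entry and per L1 copy. The submitters' processing notes name Bowtie 0.12.5, and the mouse files use mm9. The caller's settings, the use of the inputs, the placement of reads with several positions and the score's definition were not given in the sources used here, nor was ChIP depth. Peak starts were converted from BED to 1-based positions. A peak was on an L1 copy or KAP1 peak with at least 1 bp of overlap and was given to the copy of largest overlap. Peaks of 1 library are not replicates, so shares have exact binomial intervals and no test. Library totals of 37198636 to 66050821 reads were worked out from the RPKM of the L1 copies, whose lengths gave whole reads within 0.01 for 100% of values. The RNA test was limma 3.58.1 (R 4.3.3), run on log2(RPKM + 0.1) for L1 copies with a mean of at least 0.1 RPKM and log2(RPKM + 0.5) for genes with at least 0.5, with a variance trend and Benjamini-Hochberg adjustment at 0.05. Such log2 differences understate changes of low features. Tested on simulated data with 4-fold changes, it recovered 70.5% of changed L1 copies among 3167 and 100% of changed genes among 11658. The simulated reads had 1 set spread for all features and no shift between whole libraries. These rates therefore check that the test runs as meant and do not give its power in these data. Whether replicates were separate cultures is not in the labels, and the spread behind each p-value may be technical. RefSeq entries took symbols from a GRCm38.p6 table (27888 of 36083 matched), keeping the entry with the highest mean per gene. The 8 columns of group means and fold changes in the mouse tables were not used. Named were the 10 peaks of highest score, the 3 highest on each of 6 subfamilies, the 5 widest, the largest clusters, and the bound copies of highest mean or largest difference. Other clusters, stretches and equal peaks, the 10 segments and the distance windows were chosen after values were seen.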

Additional observations from a re-analysis of the deposited data

How the results depend on the processing

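Among the 328 peaks with a score of at least 100, 14.0% were on L1 (22.7% of all), 7.01% on L1Md_F2, 2.13% on L1Md_F3 and 0.305% on L1Md_T, and 3.35% were in clusters. With this limit in both lists 30.8% overlapped KAP1, and 20.9% did when at least 50% of the peak had to lie under it. Clusters held 4.23% of peaks with gaps of at most 50 kb and 32.7% with gaps of at most 500 kb. Other peak settings, 3 of them chosen after seeing the data, moved no value by more than its spread or interval. A spread is a loose limit for a median of many peaks. The median width went from 409 to 521 bp at scores of at least 100, above the upper quartile of 497 bp of all peaks. The planned position from the 5′ end was not run, since the table has no strand. For RNA, limma called 3 L1 copies, but 1 with a pseudocount of 0.5, 0 without a variance trend and 0 after median centring, and the cause was not tested. Leaving out 1 library gave 0 to 1567 copies (1567 without control 2, 19 without control 1, 0 without knockdown library 2), 0 to 5 bound copies (5 without control 2) and 0 to 0 genes. The median over all copies was 0.55 without control 2 and -0.41 without control 1. With the replicate number as a block limma called 3 copies, 0 bound copies and 0 genes. The deviations of same-numbered libraries had a correlation of -0.068 over L1 copies and 0.292 over genes, and the labels do not say what a number shares, so the main test has no block. The sums of feeder markers also followed the number (17.1 and 15.7 RPKM in libraries 1, 2.37 and 1.86 in libraries 2). The unknown ChIP depth and the single library limit what an absent peak can show.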
